A study of Sus scrofa with 12 samples.

Results

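The 10 genes described here, ND1, ND2, ND3, ND4, ND5, CYTB, COX1, COX2, COX3 and ATP6, are protein genes of the pig mitochondrial genome. They were found by matching the Ensembl identifiers of the count tables to pig symbols, which gave 1 identifier for each, so that all 10 of 10 listed genes were found among 35682 counted genes. RNA was taken from the left ventricle of 6 juvenile female Yorkshire pigs, named here by their numbers 1022, 1322, 1323, 1623, 1922 and 3622. Every animal had a 60 min balloon occlusion of the left anterior descending coronary artery followed by reperfusion. From day 9 every animal received tacrolimus at 0.75 mg/kg/day, mycophenolate mofetil at 500 mg/day and prednisolone at 20 mg/day. On day 14 the epicardium received either human vascular organoids, made of endothelial progenitor cells (EPC) and smooth muscle cells (SMC), with fibrin sealant, or fibrin sealant alone. Each animal gave 1 mid-level library of the border zone, the section next to the infarct, and 1 of the remote zone, the posterior wall, so each region has 6 libraries. Which treatment an animal received was not used, so each region mixes both treatments, the 6 remote libraries are not from uninjured hearts, and border zone and remote zone are the only groups compared.

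Mitochondria carry their own small circular genome, and the proteins it encodes are all subunits of the enzyme complexes that make ATP by oxidative phosphorylation. Complex I passes electrons from NADH to ubiquinone, complex III passes them to cytochrome c, complex IV passes them to oxygen, and complex V, the ATP synthase, uses the resulting proton gradient. All other subunits are encoded in the nucleus and imported, so each of these complexes is built from the products of both genomes. The mitochondrial RNA polymerase transcribes each strand as a long RNA that is cut, largely at the transfer RNAs between the genes, into messenger RNAs that then receive short poly(A) tails. Heart muscle beats without rest and is among the tissues with the most mitochondria.

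Of the 13 protein genes of the 16613 bp mitochondrial sequence (MT) of the Sscrofa11.1 build, the 10 genes cover all 4 complexes that this genome contributes to. ND1, ND2, ND3, ND4 and ND5 are the 5 complex I subunits, CYTB is cytochrome b of complex III, COX1, COX2 and COX3 are the 3 complex IV subunits, and ATP6 is a membrane subunit of complex V. All 10 are read from the same strand, as heavy-strand transcripts, and none has an intron. The ends of their coding sequences are shown because the libraries were made from poly(A) RNA and 6 of the 10 genes (ND1, ND2, ND3, ND4, COX2 and COX3) end in a bare T, so that their stop codon exists only once A is added to the RNA. The 3 genes ND5, COX1 and ATP6 carry a complete TAA, and CYTB ends in AGA. In the following sequences, taken from RefSeq's Sscrofa11.1 and not read from these animals, capitals mark the stop bases. They lie at MT:4850-4876 for ND1, MT:12710-12736 for ND4, MT:8029-8055 for COX1, MT:9774-9800 for ATP6 and MT:16455-16481 for CYTB, all on the plus strand.
ND1: taacagcaagcattcccccacaatcaT
ND4: ctaaaataatcctaggacccctttacT
COX1: gaaccaacatatatcaacctaaaaTAA
ATP6: agcttatacctacacgacaatacaTAA
CYTB: atcgaaaacaacctattaaaatgaAGA

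Some of these genes share bases with a neighbour, which matters for how reads are assigned to them. ATP8, which encodes another complex V subunit, overlaps ATP6 by 43 bases (MT:9120-9162), and the sequence of that overlap is shown with the start codon of ATP6 and the stop codon of ATP8 in capitals. ND4L overlaps ND4 by 7 bases (within MT:11348-11376), and ND5 overlaps ND6, which lies on the opposite strand, by 17 bases (within MT:14733-14761). In these last sequences capitals mark the bases that belong to both genes.
ATP8 and ATP6: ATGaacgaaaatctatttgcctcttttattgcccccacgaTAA
ND4L and ND4: aaccttttacaATGCTAAaaattattatc
ND5 and ND6: cactatTTAATTACCACGAGTAAtctcta

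The libraries held between 15130210 and 31618680 counts on genes, the lowest total being that of the border library of animal 3622. That library also listed 28024 genes with a count, against 16932 to 20148 in the other 11. The tissue carried heart muscle transcripts in every library. The summed level of 13 cardiomyocyte marker genes, in CPM (counts per 1e6 counts of the library) scaled by TMM, the trimmed mean of M-values, was 65515 to 105195 in remote and 14592 to 76359 in border libraries, the border library being the lower in 6 of 6 animals. For 15 fibroblast and matrix markers the summed level was 1422 to 3489 CPM in remote and 4171 to 80810 CPM in border libraries, without overlap. The border library of animal 1022 alone set the lowest cardiomyocyte and the highest fibroblast value, and without it the border limits were 49165 and 13918 CPM. Markers of other cells were also at higher summed levels in the border library of 5 of 6 animals. The median fitted log2 fold changes were 1.63 for 9 macrophage genes and 1.08 for 9 smooth muscle and pericyte genes, of which 3 were fitted lower. They were 0.65 for 5 lymphocyte genes and 3.04 for 3 adipocyte genes. With the animal as a block in the fit, these 4 medians were 0.996, 0.842, 0.464 and 2.01. For 10 endothelial genes the median without the block was 0.16, with the border library the lower in 3 of 6 animals, and for 2 red blood cell genes it was -0.11. Of all libraries, the border library of animal 1022 was highest for macrophage genes (1501 CPM, next 363). It was also highest for smooth muscle (3024 CPM, next 1085) and lymphocyte genes (64.4 CPM, next 22.1). Adipocyte levels were at most 1.84 CPM in remote libraries. In border libraries they were 39.9 CPM in animal 1323, 27.7 CPM in animal 1922 and at most 6.42 CPM otherwise. The part of these lists in the results that follow was not tested. In bulk tissue, fewer cardiomyocytes and less RNA per cardiomyocyte cannot be told apart.

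In 5 of 6 animals the 10 genes together took a smaller share of the border library's counts than of the remote library's. Their summed share of all counts ranged from 5.49% to 16.7% in the border zone, with a median of 11.2%, and from 13.1% to 32.1% in the remote zone, with a median of 14.2%. The 2 regions therefore overlapped. The largest within-animal differences were in animal 3622, with 15.1% in the border zone and 32.1% in the remote zone, animal 1322, with 9.97% and 20.6%, and animal 1022, with 5.49% and 13.8%. The differences were smaller in animal 1323, with 12.5% and 14.3%, and animal 1623, with 9.85% and 13.1%. Animal 1922 went the other way, with 16.7% in the border zone and 14.0% in the remote zone. The mean within-animal difference was -6.41 percentage points with a standard deviation (SD) of 7.02 over 6 animals, so the spread between animals was as large as the difference. Counting error was small beside this spread, since the 95% Wilson interval of a summed share reached at most 0.0194 percentage points to either side, which covers counting error only. These genes were among the most abundant transcripts, and of the 10 genes with most counts in a library, regardless of gene length, between 2 and 8 were members of this set.

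**Figure D1:**
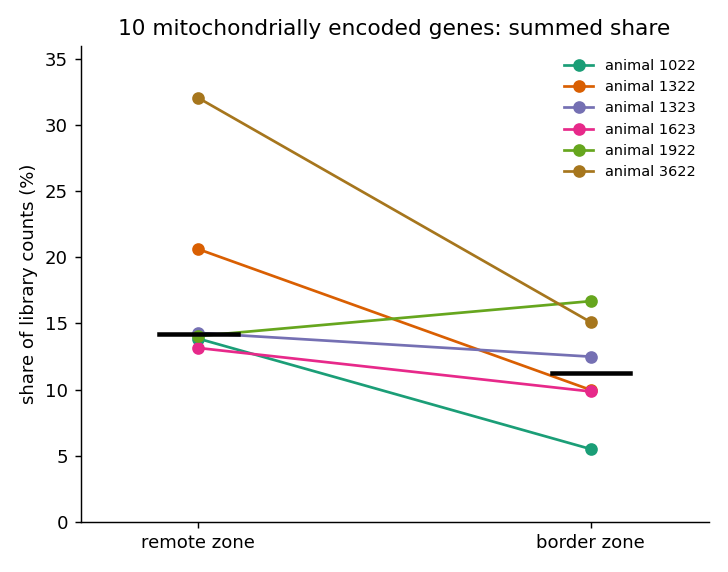
Summed share of library counts (%, vertical axis) of the 10 mitochondrially encoded genes in the remote zone and the border zone; each line joins the 2 libraries of 1 animal and black bars are medians (14.2% and 11.2%). The border end of the line is the lower in 5 animals and the higher in animal 1922, and the remote library of animal 3622 lies highest at 32.1%.

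Gene by gene, no member passed the threshold of 0.05 after Benjamini-Hochberg adjustment over all 13844 genes tested by the quasi-likelihood test of edgeR, although all 10 were fitted lower in the border zone. The count was 0 of 10 against a background of 2.07% of all genes called in either direction and 0.0144% called lower. Without adjustment, 9 of 10 members had p under 0.05, all but ND1, against 7.78% of all genes that were fitted lower at that level. With the animal as a block, 0 of 10 passed after adjustment (background 0.296%) and 10 of 10 had an unadjusted p under 0.05, against 12.4% of all genes. The unadjusted count of edgeR depended on the scaling and on single animals, being 0 of 10 with library totals in place of TMM, 0 of 10 without animal 1322, 0 of 10 without animal 3622 and 5 of 10 without animal 1623. With library totals, 4019 of 13844 genes had an unadjusted p under 0.05 in either direction. Such counts over all genes without animal 1623 or 3622 are given in the last section, and the count without animal 1322 is not given. The DESeq2 Wald test called 1 of 10, COX1, lower with an adjusted p of 0.0465, against a background of 1.83% called lower. The median log2 fold change of the members was -1.02, while the median over all genes tested was 0.04.

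Of the complex IV subunits, COX1, the catalytic subunit that binds oxygen, took 1.85% to 5.39% of all counts in the border zone (median 4.10%) and 4.63% to 9.91% in the remote zone (median 5.01%). Its fitted log2 fold change was -0.97 with a standard error (SE) of 0.39 and an adjusted p of 0.16 (edgeR). The regions overlapped, as they did for each of the 10 genes. COX2, which receives the electrons from cytochrome c, took 0.466% to 1.56% in the border zone (median 0.962%) and 1.11% to 3.28% in the remote zone (median 1.26%). COX3, a core subunit without a redox centre, took 0.746% to 2.35% (median 1.40%) and 1.62% to 4.93% (median 1.94%). The fitted log2 fold changes of COX2 and COX3 were -1.08 (SE 0.45) and -1.06 (SE 0.45). Each SE holds the spread between animals, which these genes share, so it is not the error of a difference between genes. Differences between the subunits were not tested.

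CYTB, the subunit of complex III that holds both its haem b groups, took 0.374% to 1.18% of counts in the border zone (median 0.770%) and 0.793% to 2.35% in the remote zone (median 0.996%), with a fitted log2 fold change of -1.06 (SE 0.43). ATP6, which forms part of the proton channel of the ATP synthase, took 0.783% to 2.41% (median 1.56%) and 1.80% to 5.36% (median 1.93%), with a log2 fold change of -1.11 (SE 0.45, adjusted p = 0.16 by edgeR). These log2 fold changes were close to those of the complex IV subunits.

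The 5 complex I subunits, all parts of the membrane arm that pumps protons, spanned the lowest and the highest fitted differences. ND3 took 0.0575% to 0.225% of counts in the border zone (median 0.113%) and 0.138% to 0.492% in the remote zone (median 0.152%), and had the lowest log2 fold change, -1.19 (SE 0.50). ND5 took 0.367% to 1.16% (median 0.710%) and 0.836% to 1.10% (median 0.902%), and had the log2 fold change closest to 0, -0.71 (SE 0.31). Within animals, the log2 ratio of border to remote CPM was lower for ND3 than for ND5 in every animal but 1922. Both genes were picked as the extremes, and the gap between them was not tested. ND1 took 0.216% to 0.776% (median 0.423%) and 0.300% to 1.43% (median 0.583%), with a log2 fold change of -0.96 (SE 0.50). The log2 fold changes of ND2 and ND4 were -0.99 (SE 0.44) and -0.94 (SE 0.39). All 5 thus had the same direction, and none passed the adjusted threshold.

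Within an animal the 10 genes differed between the regions in the same direction, and the spread between animals was larger than that between genes. The log2 ratio of border to remote CPM lay below 0 for 10 of 10 genes in animals 1022, 1322, 1323, 1623 and 3622, and for 0 of 10 in animal 1922. For COX1 the ratio was -1.74 in animal 1022, -1.26 in animal 1322, -0.46 in animal 1323, -0.44 in animal 1623, 0.11 in animal 1922 and -1.73 in animal 3622. The widest span within an animal was that of animal 1322, from -1.55 for ATP6 to -0.65 for ND5, followed by animal 1623, from -1.02 for ND3 to -0.41 for ND5. The SD across the 10 genes within an animal was between 0.08 and 0.25, whereas the SD across the 6 animals within a gene was between 0.71 and 0.84. The genes are not independent replicates, since they are cut from shared transcripts and counted in the same libraries. Without both libraries of animal 3622, the fitted log2 fold changes ranged from -0.85 to -0.50. In that fit 0 of 10 members passed the adjusted threshold, and neither did any other gene tested.

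**Figure D2:**
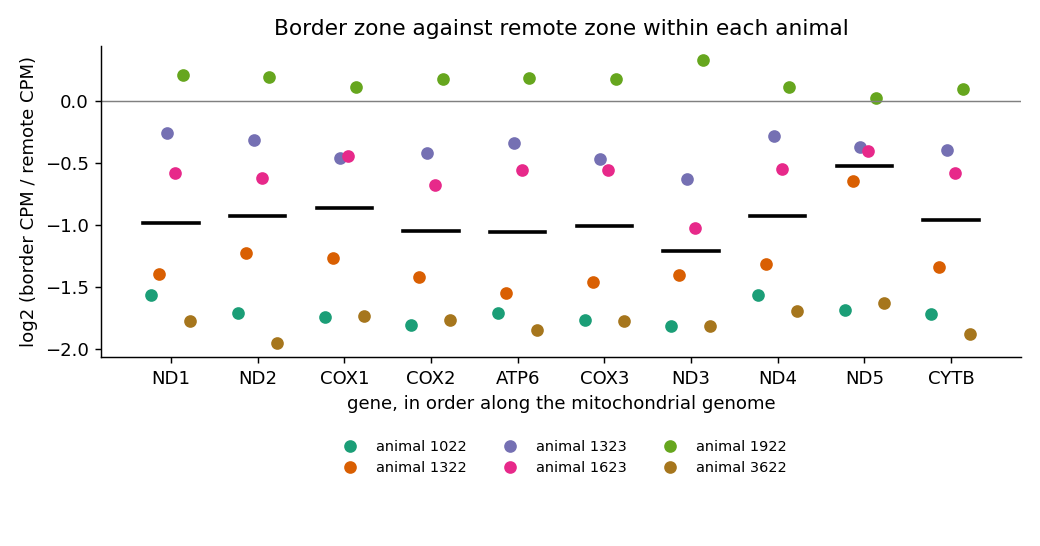
Log2 of border over remote CPM (vertical axis, TMM scaled) for each of the 10 genes in their order along the mitochondrial genome, with 1 point per animal and the median of the 6 animals as a black bar. The points of an animal lie on 1 side of 0 in all genes, above it in animal 1922 and below it in the other 5, and they spread most in animal 1322, from -1.55 for ATP6 to -0.65 for ND5.

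The relative levels of the genes were compared per kb of gene length, as each gene's share of the summed counts per kb of the 10 genes. The order by the median over 12 libraries was COX1, ATP6, COX3, COX2, CYTB, ND4, ND1, ND2, ND5 and ND3. The medians ran from 22.4% for COX1 and 21.0% for ATP6 through 17.6% for COX3, 12.8% for COX2 and 6.10% for CYTB to 3.27% for ND3, a 6.85-fold range. Each of the 4 complex IV and V genes stood above each of the 6 complex I and III genes in 12 of 12 libraries. The steps from ATP6 to COX3, from COX3 to COX2 and from COX2 to CYTB also had the same direction in 12 of 12 libraries. The other neighbours were not ordered alike in all libraries, with COX1 above ATP6 in 9, CYTB above ND4 in 8, ND4 above ND1 in 8, ND1 above ND2 in 6, ND2 above ND5 in 9 and ND5 above ND3 in 9 of 12. Thus 10 genes read from the same strand differed several-fold in their counts per kb. The 4 highest follow each other along the genome, with only ATP8 among the protein genes between them. The part of read assignment in these differences was not tested.

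**Figure D3:**
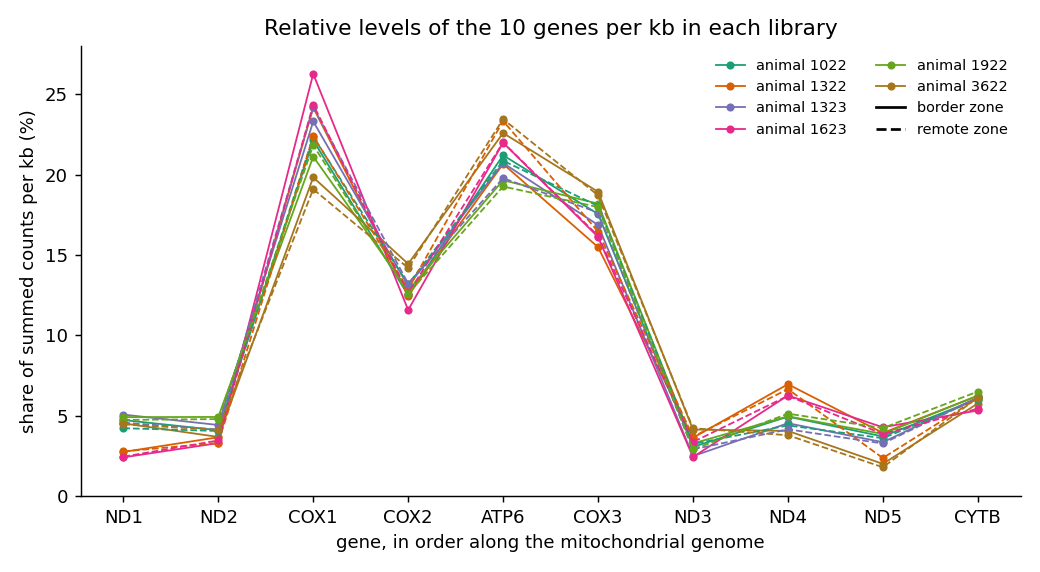
Share of the summed counts per kb of the 10 genes (%, vertical axis) taken by each gene, in their order along the mitochondrial genome; each line is 1 library, coloured by animal, solid for border zone and dashed for remote zone. COX1, COX2, ATP6 and COX3 lie above the other 6 genes in all 12 libraries.

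The balance among the genes differed little between the regions. Of the members' summed counts, the 5 complex I genes took a median of 22.7% in the border zone and 21.4% in the remote zone, CYTB took 6.84% and 6.88%, the 3 complex IV genes took 56.5% and 56.9%, and ATP6 took 14.0% and 14.3%. Each of these pairs of medians lay well inside the range of the libraries, which for complex I was 19.4% to 24.8% in remote and 19.6% to 24.6% in border libraries. Among single genes, ND5 and ND3 had the most even directions. ND5 had a higher share in the border zone of 5 of 6 animals, with a mean difference of 0.545 percentage points (SD 1.07, n = 6). Without animal 1322, the mean difference of ND5 was 0.136 percentage points. ND3 had a higher share in the border zone of 1 of 6 animals, with a mean difference of -0.0849 percentage points (SD 0.153, n = 6), which was -0.0356 without animal 1623. In both genes the SD exceeded the mean.

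The balance was instead more alike within an animal than between animals. By the Euclidean distance between centred log-ratios of the 10 shares, 9 of 12 libraries had the other library of the same animal as their nearest. The distance between the 2 libraries of an animal was 0.246 to 0.747 with a median of 0.304, and the distance between libraries of different animals was 0.284 to 2.0 with a median of 1.13 over 60 pairs. The exceptions were the border library of animal 1322 and the remote library of animal 1623, which were nearest to each other, and the remote library of animal 1323, which was nearest to the remote library of animal 1022.

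ND1, ND4 and ND5 were singled out after their values were seen, and their shares in the animals are given as a description. From the lowest to the highest animal mean, these shares differed 2.03-fold for ND1, 2.0-fold for ND5, 1.65-fold for ND3 and 1.63-fold for ND4. ND1 took 2.54% of the members' counts in the border zone and 2.66% in the remote zone of animal 1322, and 2.19% and 2.28% in animal 1623. In the 8 libraries of the other 4 animals ND1 took 4.01% to 4.75%. ND4 was high in the same 2 animals, with 9.25% and 9.17% in animal 1322 and 8.20% and 8.35% in animal 1623, against 5.48% to 6.91% in the other 8 libraries. Per kb, ND4 was therefore 2.39 to 2.59 times as high as ND1 in the 4 libraries of animals 1322 and 1623 and 0.848 to 1.08 times as high in the other 8. ND5 was lowest in animal 3622, with 3.81% in the border zone and 3.44% in the remote zone, against 4.32% to 7.54% in the other 10 libraries. Each of these contrasts appeared in both libraries of the animal, and both regions of an animal share its mitochondrial genome and its treatment, which cannot be told apart here.

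**Figure D4:**
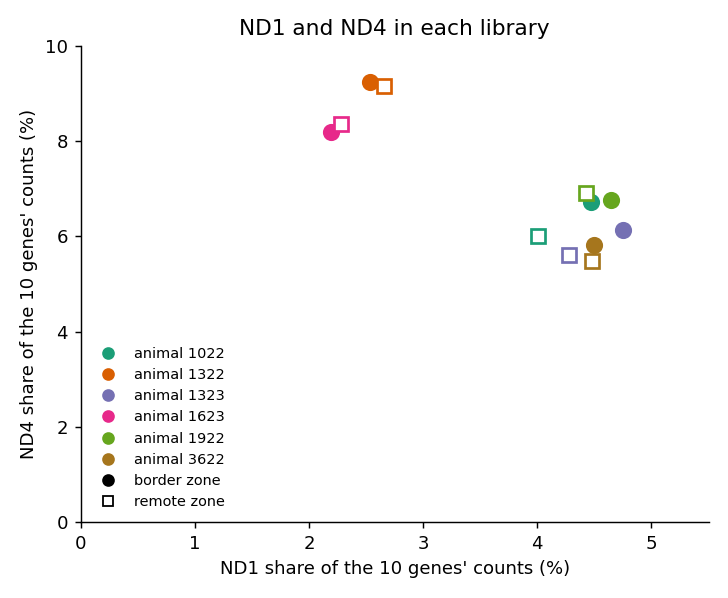
Share of the members' summed counts taken by ND1 (%, horizontal axis) and ND4 (%, vertical axis) in each of the 12 libraries, coloured by animal, with filled circles for border zone and open squares for remote zone. The 4 libraries of animals 1322 and 1623 lie at low ND1 (2.19% to 2.66%) and high ND4 (8.20% to 9.25%), apart from the other 8.

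The 3 other mitochondrially encoded protein genes gave further values per kb, set against the median of the 10 genes in each library. ND6, the only protein gene of the opposite strand, was at a median of 0.933 times that median (0.808 to 1.33). Because the libraries were not strand-specific, reads from the RNA opposite to ND6 cannot be told apart from those of ND6 itself. ND4L was at 0.399 times (0.143 to 0.543) and lowest in both libraries of animal 3622, with 0.210 in the border zone and 0.143 in the remote zone. ATP8 was at 0.182 times (0.0781 to 0.284) and was lowest in animals 1322 and 1623, at 0.0781 to 0.109 in their 4 libraries. Both are short and overlap a neighbour, so their counts depend on how shared reads were assigned, which was not given in the sources used here. The log2 fold changes were -1.21 for ND6 (SE 0.49), -0.61 for ND4L (SE 0.30) and -0.84 for ATP8 (SE 0.51), and none passed the adjusted threshold.

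The nuclear-encoded partners of these genes were also fitted lower in the border zone. Of 67 nuclear subunits of complexes I to V that were tested, 67 had a negative log2 fold change and 46 an unadjusted p under 0.05, against 7.78% of all genes that were fitted lower at that level. After adjustment 0 passed in edgeR with or without the block, and DESeq2 called 7 lower, against 1.83% of all genes. Over all 13844 genes, 6459 were fitted lower. The median log2 fold change was -0.77 for 32 complex I subunits, -0.55 for 4 complex II subunits, -0.72 for 8 complex III subunits, -0.79 for 11 complex IV subunits and -0.77 for 12 ATP synthase subunits. Complex II, succinate dehydrogenase, is the complex with no mitochondrially encoded subunit. The subunits with the smallest p in each list were NDUFB7, an accessory subunit of complex I (-0.97, SE 0.31, adjusted p = 0.090), SDHB, the iron-sulphur subunit of complex II (-0.70, SE 0.30, adjusted p = 0.17), and UQCRC1, a core subunit of complex III (-0.78, SE 0.33, adjusted p = 0.17). For COX4I1, a regulatory subunit of complex IV, the value was -0.95 (SE 0.35, adjusted p = 0.13), and for ATP5F1D, the delta subunit of the ATP synthase, it was -0.86 (SE 0.29, adjusted p = 0.11, all by edgeR).

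Set against these partners within each library, the mitochondrially encoded genes had no common direction between the regions. The ratio of the summed CPM of the 10 genes to that of 68 nuclear subunit genes was 3.43 to 8.06 in the border zone (median 6.78) and 4.46 to 11.4 in the remote zone (median 5.35). The log2 ratio of the border library minus that of the remote library was below 0 in 3 of 6 animals, at -1.0 in animal 1322, -0.65 in animal 3622 and -0.14 in animal 1623. It was above 0 in the other 3, at 0.58 in animal 1022, 0.44 in animal 1922 and 0.40 in animal 1323. The mean difference was -0.06 (SD 0.65, n = 6), far inside the spread between animals.

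The 2 genomes therefore differed between regions by unequal amounts in single animals. In animal 1022 the summed nuclear subunits differed by -2.30 on the log2 scale and the 10 genes by -1.72, and the cardiomyocyte markers by -2.23. In animal 1322 the nuclear subunits and the cardiomyocyte markers both differed by -0.32, and the 10 genes by -1.32. In animal 3622 the nuclear subunits differed by -1.13, the cardiomyocyte markers by -0.81 and the 10 genes by -1.78. The nuclear subunits lay nearer to the cardiomyocyte markers than the 10 genes did in every animal but 1323, while the 10 genes lay above both lists in 3 animals and below both in 3. Relative to the cardiomyocyte markers, the 10 genes were lower in the border zone of 3 of 6 animals, with a mean log2 difference of -0.18 (SD 0.68, n = 6). The fibroblast and matrix markers of animal 1022 were at 80810 CPM in the border zone and 1422 CPM in the remote zone, the widest gap of the 6 animals, and those of animal 1322 at 4171 and 2443 CPM, the narrowest, and their part in the difference between these 2 animals was not tested.

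**Figure D5:**
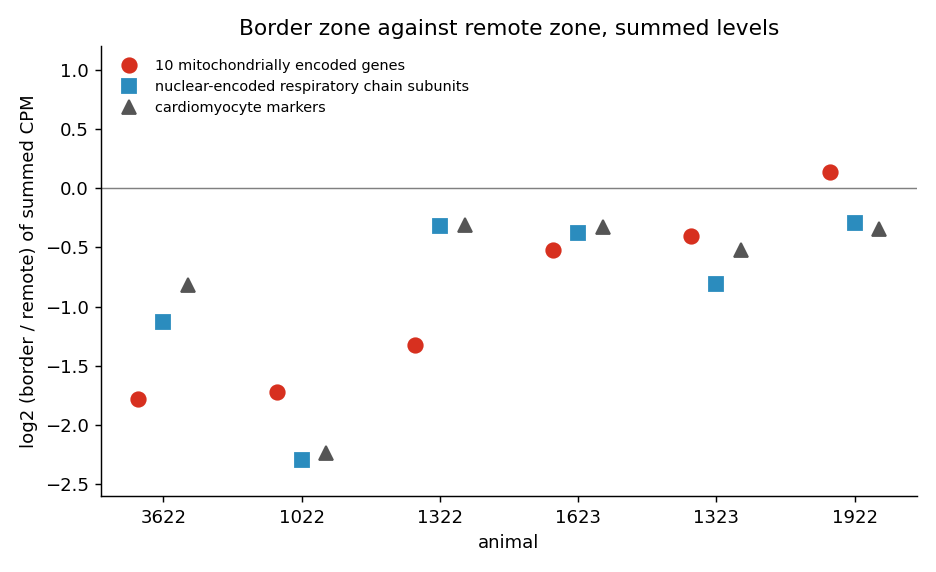
Log2 of border over remote summed CPM (vertical axis) in each animal for the 10 mitochondrially encoded genes (circles), 68 nuclear-encoded respiratory chain subunit genes (squares) and 13 cardiomyocyte markers (triangles), with animals ordered by the first. Squares and triangles lie below 0 in 6 of 6 animals, and circles lie below them in animals 3622, 1322 and 1623 and above them in the other 3.

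The nuclear genes that copy, transcribe, process and translate the mitochondrial genome had medians closer to 0 than complexes I, III, IV and V, a difference that was not tested. Among 14 genes of mitochondrial DNA transcription and copying, 13 had a negative log2 fold change with a median of -0.23, and 1 had an unadjusted p under 0.05, a share near the 7.78% of all genes. That gene was RNASEH1, a nuclease that removes RNA paired with DNA (-0.57, SE 0.18, adjusted p = 0.097 by edgeR). TFAM, which packages mitochondrial DNA and starts its transcription, had a log2 fold change of -0.35 (SE 0.20). TWNK, the mitochondrial replicative helicase, had one of -0.38 (SE 0.21).

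Of 19 genes of mitochondrial RNA processing and stability, 17 were fitted lower with a median of -0.25. Of these, 6 had an unadjusted p under 0.05, against 7.78% of all genes, and 1 other gene of the list was fitted higher at that level. FASTK, the founding member of a family of mitochondrial RNA-binding proteins, had the smallest adjusted p of the 11 pathway lists (-0.78, SE 0.20, adjusted p = 0.058 by edgeR). Over its alternatives the adjusted p ran from 0.0054 with the DESeq2 Wald test to 0.162 without animal 1323. It was also under 0.05 without both libraries of animal 1022 (0.049) and without that animal's border library (0.026), the last chosen after seeing the data, and it was 0.077 with the block. SLIRP, which with LRPPRC stabilises mitochondrial messenger RNAs, had a log2 fold change of -0.82 (SE 0.28). HSD17B10, a part of the enzyme that cuts transfer RNAs out of the primary transcript at their 5′ ends, had one of -0.90 (SE 0.33).

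All 66 mitochondrial ribosomal protein genes were fitted lower, with a median of -0.52, and 41 had an unadjusted p under 0.05, against 7.78% of all genes. MRPS6, of the small subunit, had the smallest p of them (-0.92, SE 0.27, adjusted p = 0.079 by edgeR). The 11 translation factors had a median of -0.35, with -0.68 (SE 0.25) for the elongation factor TUFM. Of 7 regulators of mitochondrial biogenesis, 4 were fitted lower with a median of -0.08, which was 0.07 with the block. ESRRA, a nuclear receptor that acts on genes of energy metabolism, had a log2 fold change of -0.71 (SE 0.29), and its coactivator PPARGC1A one of -0.71 (SE 0.44). PPRC1, a coactivator related to PPARGC1A, went the other way at 0.45 (SE 0.23), with the border library the lower in 1 of 6 animals. The 10 genes of mitochondrial membrane, import and matrix had a median of -0.47, with -0.52 (SE 0.19) for the import pore TOMM40. Over the 11 lists, 0 of 194 genes passed the adjusted threshold in edgeR with or without the block, 101 were fitted lower at an unadjusted p under 0.05 (7.78% of all genes), and DESeq2 called 21 lower (1.83% of all genes) and 0 higher.

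The genes outside the mitochondrial genome whose levels were most like the mean profile of the 10 genes were found by the root mean square difference of log2 CPM, each centred on its mean, over 12 libraries and 11713 genes with a symbol. These were RIOX2 (0.277), DMAC1 (0.294), PRXL2B (0.315), TCF15 (0.317) and CZIB (0.352), against a median of 0.955 over all genes compared. The 10 members themselves lay at 0.0551 to 0.385 from their own mean profile, so 12 nuclear genes were as near to it as the least typical member. DMAC1 is known as an assembly factor of complex I, and RIOX2 as an oxygenase that modifies ribosomal protein. RIOX2 was at 15.4 to 61.2 CPM in border libraries and 44.1 to 133 CPM in remote libraries, with a log2 fold change of -0.69 (SE 0.34, adjusted p = 0.23 by edgeR). DMAC1 was at 2.58 to 8.54 and 8.17 to 16.9 CPM, with a log2 fold change of -0.86 (SE 0.27, adjusted p = 0.089 by edgeR). The likeness is a description over libraries that share the same remote and border samples, and it includes the difference between regions.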

How the data were processed

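For 12 poly(A), nondirectional libraries the authors deposited unnormalised counts per gene, from alignment with STAR to Sscrofa11.1 with Ensembl genes and counting by featureCounts. How reads that match several genes or nuclear copies of mitochondrial sequence were counted was not given in the sources used here. Region and animal came from the labels. The treatment of each animal was not read from the values. Pig symbols came from a table that matched 15623 of 35682 identifiers, and rRNA and tRNA genes were not used here. Coordinates and sequences are RefSeq's for Sscrofa11.1, whose mitochondrial sequence is not from these animals.

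Shares were taken of all counts on genes in a library. Library totals were 15130210 to 31618680, and intervals are 95% Wilson intervals. Genes were kept by filterByExpr, scaled by TMM and tested with region as the only term by edgeR 4.0.16 (robust quasi-likelihood test, R 4.3.3, limma 3.58.1), adjusted by Benjamini-Hochberg over all genes at 0.05. Standard errors were derived from the fold change and F. Log2 CPM used a prior count of 2, and the log2 ratios of border to remote CPM used no prior count. DESeq2 1.42.0 was an alternative. Sums, shares and distances used pandas 2.3.3, NumPy 2.4.6 and SciPy 1.17.1, and figures matplotlib 3.10.9, under Python 3.11.15. The main edgeR fit was tested on simulated counts without an animal effect, and the other steps were not tested in this way.

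Libraries were paired by animal number, since each number marks 1 animal. Across genes, the deviations of paired libraries from their region's mean had an average r of 0.345 (-0.03 to 0.57), over 0.1 in 4 of 6 pairs. No 2 libraries held the same counts.

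The genes named are the 10 members, ND4L, ND6, ATP8, up to 3 genes a pathway list by smallest p, and the 5 most alike. Members and lists were chosen with earlier results of these data known. Alternatives were the animal block, DESeq2, other scalings and filters, and each animal left out.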

Additional observations from a re-analysis of the deposited data

Results flagged for a closer look

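Over 24 measures, which were each gene's share of library counts and of the members' counts, the summed share and 3 ratios of the members to nuclear lists, each taken in both regions, 8 of 48 groups of 6 libraries held a library far from the others (Dixon's criterion at 95%, which chance meets in about 1 group of 20). The measures draw on the same libraries and counts, so the groups are not independent and the chance rate cannot judge their number. The remote library of animal 3622 accounted for 6 of the 8. Its share of library counts was 1.43% for ND1 against 0.622% in the next library, 1.44% for ND2 against 0.711%, 0.492% for ND3 against 0.264%, 3.28% for COX2 against 1.83% and 4.93% for COX3 against 2.66%. COX2 also took 10.2% of the members' counts there, against 9.00% in the next. In the border zone, ATP6 took 16.0% of the members' counts in animal 3622, against 14.2% in the next library, and CYTB took 5.77% in animal 1623, against 6.80%.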

How the results depend on the processing

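All 10 members kept a negative log2 fold change under every alternative run, and their median lay between -1.31 and -0.64. Of 150 values, 149 kept their side of the threshold, and COX1 passed it with the DESeq2 Wald test. No named nuclear gene of 38 reversed, and 19 of their 570 values newly passed, 17 with the DESeq2 Wald test and 2 of FASTK without animal 1022 or its border library. With library totals the median over all genes was 0.32 in place of 0.04, and that of the members -0.64. The count of genes past the threshold, 287, became 1719 with the DESeq2 Wald test, 1551 with library totals, 149 with at least 10 counts in every library, 139 with no filter and 41 with the replicate block. It ranged from 0 to 519 with 1 animal left out, being 0 by edgeR without animal 1623 (2662 genes at an unadjusted p under 0.05) or 3622 (2448 genes), 3 without 1323, 15 without 1922, 163 without 1022 and 519 without 1322. Without the border library of animal 3622, chosen after seeing the data, it was 156. The cause was not tested. The block changed no call of a member. The mean difference in summed share was -4.29 to -8.21 percentage points with 1 animal left out. It was -9.78 when taken over the counts of all genes but the 13 mitochondrial protein genes. The mean differences in single shares moved by less than 1 SD, but ATP6, COX1 and ND2 changed sign with 1 animal left out. The share over all annotated mitochondrial genes with rRNA and tRNA was not run, because their Ensembl identifiers had no symbol in the table used. Depth limited little, since counting error reached at most 0.0194 percentage points of a summed share.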
